A study of Oryza sativa with 6 samples.

Results

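The K+PEG pulldown of the rice genome consisted of 2 libraries, replicates 1 and 2, and its members are all peaks that the authors deposited for these libraries on chromosomes 1 to 12. Replicate 1 had 73199 peaks and replicate 2 had 81992, together 155191 of the 289038 peaks in the 4 lists of the series. Both libraries were made from wild-type seedlings of the cultivar Nipponbare, 2 weeks old, whose cross-linked tissue (1% formaldehyde) gave the genomic DNA. Fragmented DNA (5 μg) was denatured, refolded and incubated with the BG4 antibody in a buffer with 150 mM KCl and 40% PEG. The methods name the libraries biological replicates and do not say how many seedlings were pooled for each. Because the DNA was purified and refolded in the tube, the peaks describe what naked DNA offered to BG4 and not the state of chromatin in the seedling.

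A G-quadruplex (G4) is a DNA fold in which runs of guanines stack as planar tetrads around a central cation. Potassium fits between the tetrads and stabilizes them, and polyethylene glycol (PEG), a crowding agent, withdraws water and favors the fold. BG4 is a single-chain antibody that binds G4s with little regard for their sequence, so a pulldown of refolded DNA maps where the genome can fold in this way. Rice chromosomes have gene-rich outer arms and repeat-rich stretches around the centromere, and the short arm of chromosome 4, which carries the first bases of its numbering, is known as largely heterochromatic.

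A peak is a stretch in which the authors' peak caller, MACS2, found more reads of the pulldown than of the local background at p = 0.01, and its summit is the base with the most reads. The fold enrichment compares the reads at the summit with the local background, each plus 1. Summit reads and local background were solved from this ratio and the −log10 p. Whole reads came out for every peak except the one of highest fold enrichment in replicate 1. With an assumed read extension of 200 bp, the lowest background gave an approximate depth of 7904188 reads for replicate 1 and 13334915 for replicate 2, a ratio of 1.69. The summits rested on a median of 21 reads in replicate 1 and 32 in replicate 2, and on no fewer than 10 and 14. Values of replicate 2 therefore carry less counting error, and the difference in depth goes with every difference in number between the lists. Only 1 condition is described, so no test between groups was made, and peaks and windows were not treated as replicates.

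Peaks lay on all chromosomes at nearly the same density. Over the 373 Mb between the chromosome starts and the last peak of each chromosome, replicate 1 had 196 summits per Mb and replicate 2 had 220, a mean of 208 ± 16.7 (SD, n = 2). Chromosome 11 was the sparsest in both lists, with 185 and 210 summits per Mb in replicates 1 and 2. Chromosome 5 was the densest in both, with 203 and 230. The densest chromosome exceeded the sparsest by only 1.10 times in each library, which is less than the ratio of 1.12 between the libraries. Between these ends, chromosome 10 was second in both lists, with 202 and 230 summits per Mb, and chromosomes 1 and 2, the next sparsest in replicate 2, had 193 and 195 in replicate 1 and 211 and 212 in replicate 2. Across the 12 chromosomes, which share 2 libraries, the Spearman correlation of the densities was 0.762. Replicate 2 had more peaks on every chromosome, from 1.08 times on chromosome 3 to 1.15 times on chromosome 8.

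Strength and length also varied little among chromosomes. The median fold enrichment per chromosome lay between 3.72 and 3.83 in replicate 1 and between 3.50 and 3.63 in replicate 2, with chromosome 4 lowest in both. The median peak length lay between 375 and 392 bp and between 394 and 409 bp, and chromosome 7 had the longest peaks in both lists. Peaks covered from 8.72% of chromosome 11 to 9.73% of chromosome 10 in replicate 1, and from 10.5% of chromosome 1 to 11.98% of chromosome 10 in replicate 2. Of the whole span, 9.29% and 11.2% lay in a peak of replicates 1 and 2.

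Within chromosomes, summits were denser toward the middle than toward the ends. Each chromosome was divided into 10 equal parts, counted from the first base. Over all chromosomes, the density rose from 188 summits per Mb in part 1 to 215 in part 4 and went down to 184 in part 10 in replicate 1, and the same parts held 208, 252 and 191 in replicate 2. Parts 4 to 7 together had 1.11 times the density of parts 1, 2, 9 and 10 in replicate 1 and 1.18 times in replicate 2. This held for 10 chromosomes in replicate 1 and 11 in replicate 2. On chromosome 12 the middle was 1.21 times as dense as the ends in replicate 1, its highest ratio, and on chromosome 11 it was 1.31 times as dense in replicate 2. The lowest ratios were 0.958, on chromosome 9 in replicate 1, and 0.987, on chromosome 4 in replicate 2.

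**Figure D1:**
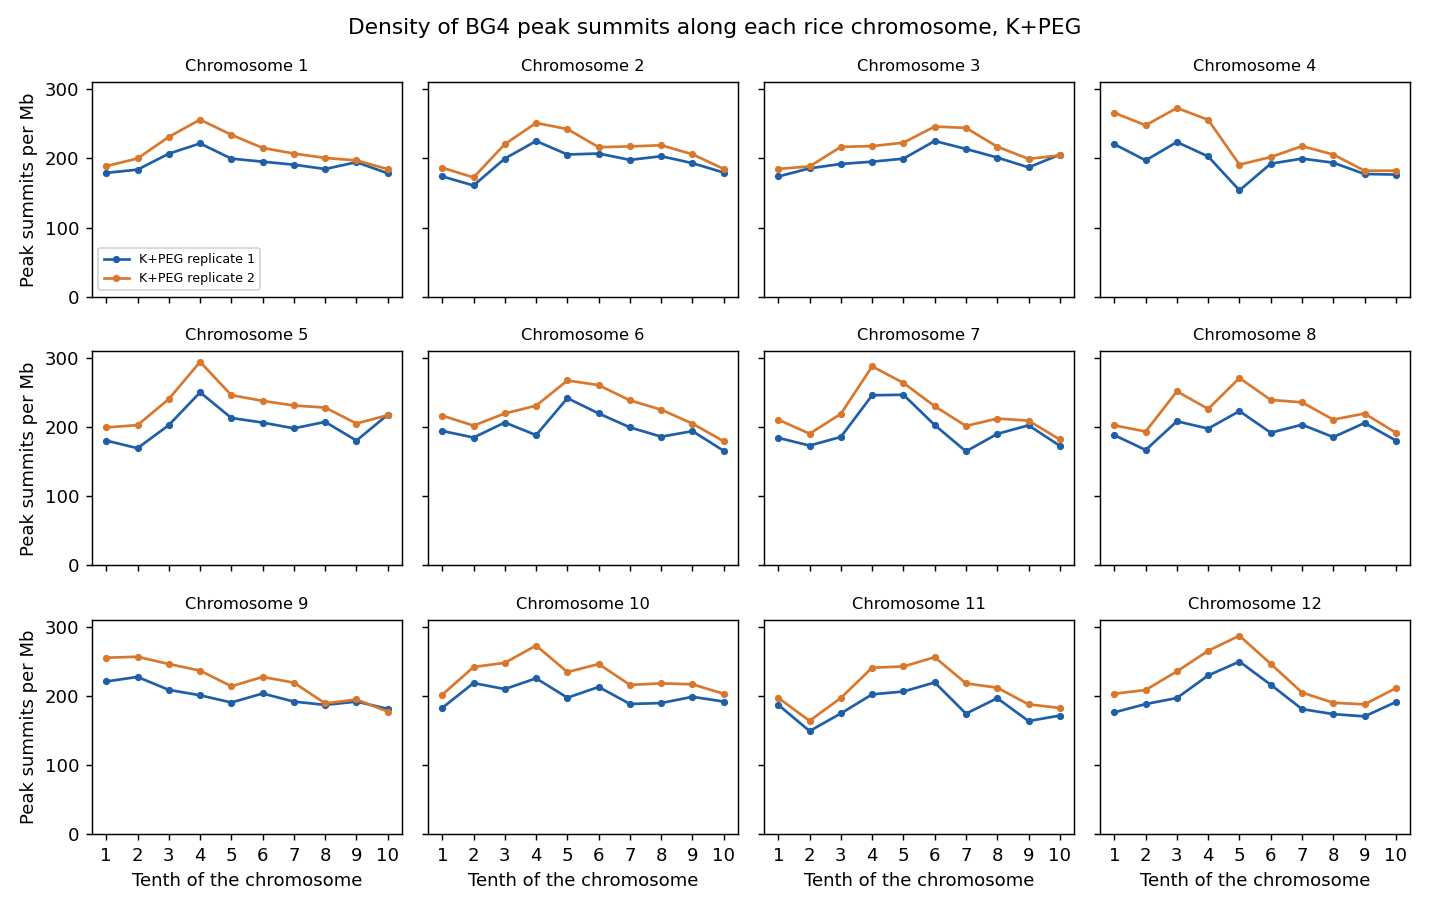
Peak summits per Mb (vertical axis) in 10 equal parts of each of the 12 chromosomes (horizontal axis, counted from the first base), one line per K+PEG replicate. On most chromosomes both lines are highest in parts 3 to 6, and on chromosome 4 the gap between the lines is wide in the first 5 parts and narrow in the last 5.

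Chromosomes 4 and 9 departed from this shape. On chromosome 4, parts 1 to 4 held 197 to 224 summits per Mb in replicate 1 and 248 to 273 in replicate 2, above the last 3 parts, with 177 to 194 and 182 to 206. Part 5, between them, was the sparsest part of replicate 1 on this chromosome, with 154 summits per Mb, beside 191 in replicate 2. On chromosome 9, density was highest in the first 2 parts, with 221 and 255 summits per Mb in part 1 and 227 and 257 in part 2, and was 181 and 177 in part 10. Chromosome 11 had the sparsest single part of both lists, part 2, with 149 and 164 summits per Mb.

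The surplus of replicate 2 over replicate 1 was itself uneven. Summed over chromosomes, replicate 2 had 1.17 times the peaks of replicate 1 in part 4, 1.06 times in part 9 and 1.04 times in part 10. On chromosome 4, the ratio was between 1.21 and 1.26 in parts 1 to 5 and between 1.03 and 1.09 in parts 6 to 10. Fold enrichment differed little between dense and sparse parts. The median fold enrichment in part 4 was 3.78 in replicate 1 and 3.49 in replicate 2, beside 3.74 and 3.61 in part 10. The local background, given as a multiple of the lowest background of its library, had a median of 1.10 in part 4 and of 1.17 and 1.16 in part 10 in replicates 1 and 2. Its part in the profile was not tested.

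At a scale of 1 Mb, the 367 full windows repeated the pattern in both libraries. The Spearman correlation of their summit counts was 0.835, given as a description, since the windows share the same 2 libraries. On 9 of the 12 chromosomes both lists had their densest window at the same place, and on 6 their sparsest. On chromosome 5, the window from 10 to 11 Mb was the densest in both, with 298 and 336 summits, and that from 3 to 4 Mb the sparsest, with 154 and 172. The widest range within a chromosome was on chromosome 4 in replicate 2, where the window from 3 to 4 Mb had 334 summits and that from 15 to 16 Mb had 144, a ratio of 2.32. Replicate 1 had 264 and 123 summits in the same windows. The narrowest range was on chromosome 10, with a ratio of 1.51 in each library. Replicate 2 had more summits than replicate 1 in 338 of the 367 windows and fewer in 21.

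The distance between neighboring summits was most frequent somewhat below 1 kb, but most neighbors were farther apart than 1 kb, and the distribution had a long tail. The median distance was 3214 bp in replicate 1 and 2865 bp in replicate 2, a mean of 3040 ± 247 bp (SD, n = 2), and the middle 50% of distances lay between 1379 and 6872 bp and between 1338 and 6156 bp. The most frequent distances were those from 600 to 800 bp, with 5.78% and 5.89% of all distances, or 2.89% and 2.94% per 100 bp. In the lists, 16.3% and 16.5% of distances were at most 1 kb and 13.8% and 11.1% were above 10 kb. The share of close neighbors was thus nearly equal in both libraries, while long distances were rarer in the deeper one. The closest summits were 177 and 217 bp apart. Short distances are limited by the peaks themselves, which were at least 200 bp long.

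**Figure D2:**
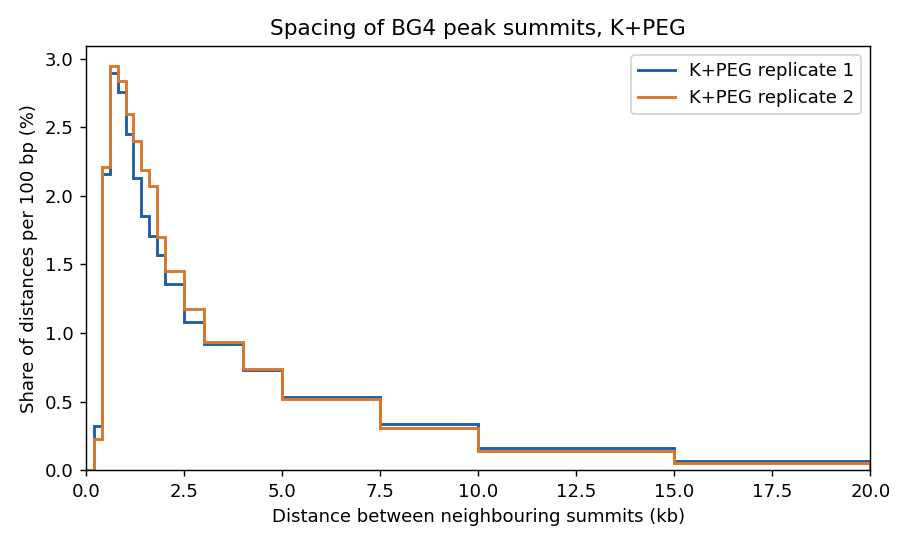
Share of distances between neighboring summits per 100 bp (vertical axis, %) by distance in kb (horizontal axis, up to 20 kb), one stepped line per K+PEG replicate. Both lines peak between 0.6 and 0.8 kb, at 2.89% and 2.94% per 100 bp, and fall off slowly beyond 2 kb.

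Peaks with a close neighbor were somewhat weaker and shorter than isolated ones. Of all peaks, 29.4% in replicate 1 and 29.8% in replicate 2 had their nearest neighbor within 1 kb, and 2.19% and 1.49% had none within 10 kb. The median fold enrichment was 3.64 and 3.29 with a neighbor within 1 kb and 3.91 and 3.74 with none within 10 kb. The median length was 354 and 360 bp for the former and 384 and 389 bp for the latter. Peaks with their nearest neighbor 1 to 10 kb away were longer than both, with 396 and 426 bp. A neighbor within 1 kb also limits the length that a peak can reach. A peak with a close neighbor was also found less often in the other list in replicate 2, with 66.3% against 71.7%, whereas the shares in replicate 1 were 78.2% and 79.6%.

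In windows of 100 kb, the number of summits ranged widely around its mean. The 3726 full windows had a mean of 19.6 summits in replicate 1 and 22.0 in replicate 2, and 5% of them had at most 11 and 13, while 5% had 30 and 34 or more. The Spearman correlation between replicates was 0.727. After each library was scaled to its own mean, the counts of 94.3% of the windows with summits in both lists were within 1.5 times of each other. Replicate 2 was relatively higher by 1.5 times or more in 139 windows and replicate 1 in 73. The largest counts were 67 summits in replicate 1 and 57 in replicate 2. The variance was 1.86 and 1.91 times the mean in replicates 1 and 2.

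Windows with at least 2 times the library mean were called hot. They made up 0.778% of the windows in replicate 1 (29 windows) and 0.564% in replicate 2 (21 windows), and 15 windows on 8 chromosomes were hot in both, which is 51.7% of those of replicate 1 and 71.4% of those of replicate 2. Chromosomes 4 and 6 had 3 of the 15 each, and chromosomes 5, 7 and 12 had 2 each. In the 15 windows, the median fold enrichment was 4.16 in replicate 1 and 3.14 in replicate 2, compared with 3.78 and 3.60 in the 3675 windows that were neither hot in both libraries nor sparse in both.

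The window with the highest count in its weaker replicate was that from 6700001 to 6800000 on chromosome 4 of MSU v7.0. It held 57 summits in replicate 1 and 55 in replicate 2, with a median distance of 1381 and 1538 bp. Its median fold enrichment of 3.54 and 3.19 was below the median of each library, and its median background, 1.02 and 1.04 times the lowest, was close to the lowest. The density there thus came from many ordinary peaks.

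The window from 15400001 to 15500000 on chromosome 6 was different. It had 61 and 54 summits, and its background was high, with a median of 3.96 and 4.74 times the lowest. The summits rested on a median of 119 and 99.5 reads. The median fold enrichment was 5.10 in replicate 1 and 2.87 in replicate 2, so the replicates shared its place and not its strength. All 54 of the peaks of replicate 2 overlapped a peak of replicate 1, beside 69.8% in the whole list. In the other direction, 45 of the 61 peaks of replicate 1 (73.8%) were shared, beside 79.9% in the whole list. Peaks covered 40.3% of the window in replicate 1 and 21.5% in replicate 2, so an overlap of 1 bp came more easily there.

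Of the other 3 windows at the top of this order, the first 100 kb of chromosome 6 held 50 and 47 summits and included the peak with the highest background of both lists. The window from 13600001 to 13700000 on chromosome 2 held 67 and 46 summits, and peaks covered 55.7% of it in replicate 1 and 22.5% in replicate 2. Its median fold enrichment was 6.06 and 2.67. The window from 29800001 to 29900000 on chromosome 5, close to the end of the chromosome, held 46 and 57 summits with a median fold enrichment of 3.99 and 2.99. In each of the 5 windows, the median fold enrichment was higher in replicate 1, the shallower library. Genes and repeats at these places were not analysed here.

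**Figure D3:**
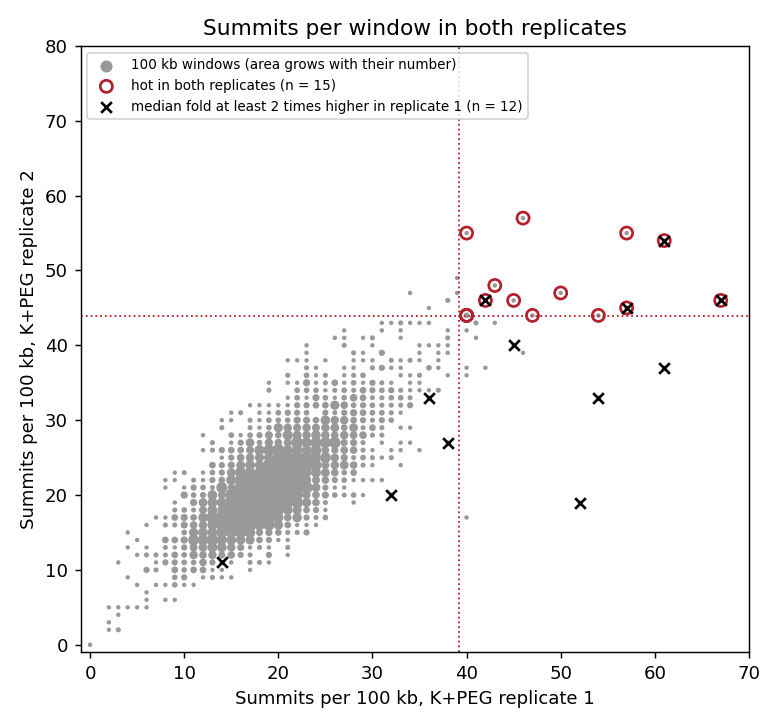
Summits per 100 kb window in K+PEG replicate 1 (horizontal axis) against replicate 2 (vertical axis), with grey points for windows, dotted lines at 2 times each library's mean, red circles for the 15 windows hot in both, and crosses for the 12 windows in which peaks were at least 2 times stronger in replicate 1. Of the 12 crosses, 8 lie to the right of the limit of replicate 1 and 4 of these above that of replicate 2.

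Beyond these counts, a small set of windows differed in strength between the replicates. Of 60426 overlapping pairs of peaks, 50828 were 1 to 1, with each peak overlapping only the other. Pairs with a peak that overlapped more than 1 peak of the other list were left out. In the 50828 pairs, the log2 ratio of fold enrichment, replicate 1 over replicate 2, had a median of -0.04. For 90% of them it lay between -0.87 and 0.82. The Spearman correlation of fold enrichment across the pairs was 0.566. The ratio exceeded 2 times in favor of replicate 1 at 1277 places and in favor of replicate 2 at 1369, so that peak by peak the scatter was nearly even. By window it was not even. Among 3144 windows with at least 10 such pairs, the median log2 ratio was 1 or more in 12 windows, whereas the lowest value in favor of replicate 2 was -0.59.

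**Figure D4:**
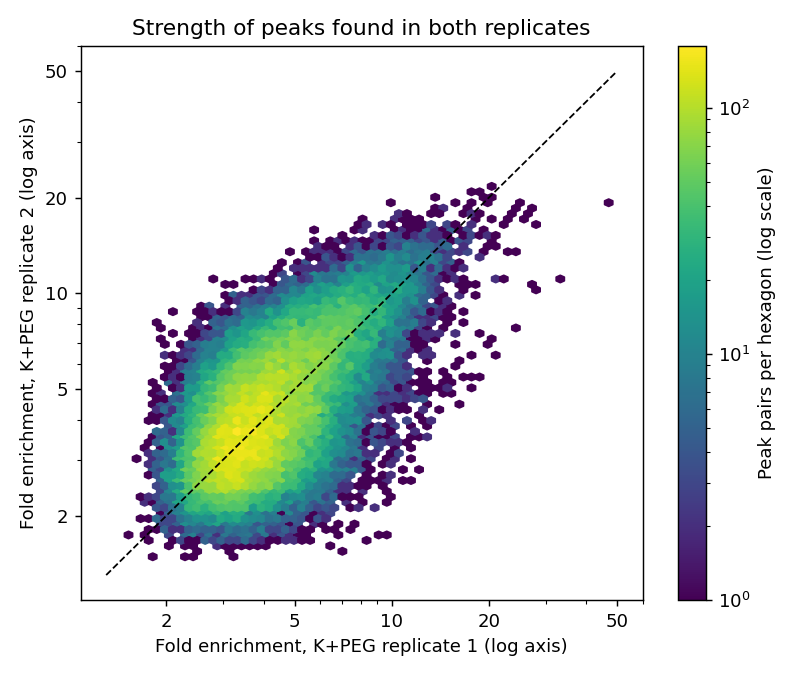
Fold enrichment in K+PEG replicate 1 (horizontal log axis) against replicate 2 (vertical log axis) for the 50828 pairs of peaks matched 1 to 1, as hexagons colored by the number of pairs on a log scale, with the dashed line of equality. The cloud lies around the line with wide scatter (Spearman correlation 0.566). A thin spread of pairs lies to the right of the line, where fold enrichment in replicate 1 reached 48.4 while that of replicate 2 did not exceed 21.7.

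These 12 windows lay on 9 chromosomes, and adjacent pairs of them on chromosomes 1, 2 and 9. They were chosen by this ratio, so their strengths are given as a description. The highest median log2 ratio, 1.46, was that of the window from 12000001 to 12100000 on chromosome 12, with a median fold enrichment of 6.51 in replicate 1 and 2.63 in replicate 2. The window from 12100001 to 12200000 on chromosome 7 had 52 summits in replicate 1 and 19 in replicate 2, the most unequal numbers among the 12. Taken as a set, the 12 windows had 559 peaks in replicate 1 and 411 in replicate 2, although replicate 2 had more peaks elsewhere. Only 55.3% of their replicate 1 peaks overlapped a peak of replicate 2, compared with 80.1% outside. In the other direction, 91.7% of their replicate 2 peaks overlapped a peak of replicate 1, compared with 69.7% outside.

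The local background was raised in most of these windows. A background of at least 5 times the lowest was found for 14.5% of their replicate 1 peaks and 20.9% of their replicate 2 peaks, beside 0.176% and 0.208% elsewhere. The median background of their peaks was 1.50 and 1.80 times the lowest. The windows on chromosomes 5 and 7 were exceptions, with a median of 1.00 in replicate 1 and of 1.01 and 1.08 in replicate 2. In several others the median was only somewhat above that of all peaks, 1.13 and 1.12. Among them was the window from 13700001 to 13800000 on chromosome 2, with 1.15 and 1.20. The backgrounds of the 2 lists may come from 1 control. The part of the background in the difference between the replicates was not tested. Without the 12 windows, an alternative chosen after these values had been seen, 11 hot windows were left in both lists, and the correlation of the remaining windows was 0.726.

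Windows with at most 0.5 times the library mean were called sparse. They made up 2.52% of the windows in replicate 1 (94 windows) and 1.69% in replicate 2 (63 windows), and 36 windows on 10 chromosomes were sparse in both. Chromosome 11 had 8 of the 36, chromosome 12 had 6 and chromosome 4 had 5. The peaks that lay there were not much weaker than elsewhere, with a median fold enrichment of 3.70 in replicate 1 and 3.50 in replicate 2. Of these peaks, 73.1% and 62.3% were shared, compared with 79.96% and 69.7% in the same 3675 windows. The windows were chosen for few summits in both lists, so fewer peaks of the other list lay there to be met. The lower shares are therefore not read as a trait of these peaks. One window, from 12400001 to 12500000 on chromosome 11, had no summit in either library.

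Stretches of at least 20 kb without a base in a peak of either library numbered 657 and added up to 17.4 Mb, or 4.67% of the span, with a median length of 23.3 kb. Only 108 of them reached 30 kb, 35 reached 40 kb and 21 reached 50 kb. Chromosome 11 was the emptiest, with 68 stretches over 7.27% of its length and 7 of the 21 longest. Chromosome 1, with 54 stretches, had the lowest share, 3.11%, and chromosomes 3, 5, 6 and 9 had no stretch of 50 kb. By position, the stretches were most frequent in parts 2 and 10 of the chromosomes, with 91 and 88, and least frequent in parts 6, 7 and 9, with 52 each.

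The longest empty stretch ran for 201976 bp on chromosome 11, from 12352909 to 12554884. It was not set in a sparse neighborhood, since the 100 kb on each side together held 54 summits in replicate 1 and 57 in replicate 2, more than the mean of 2 windows. The window at its left edge is also one of the 12 in which replicate 1 was stronger, and its median background was 4.74 and 3.84 times the lowest. The next longest, of 105504 bp on chromosome 4 from 15582568 to 15688071, had only 19 and 23 summits in its flanks. Another, of 80304 bp from 15744134 to 15824437, lies close to it on the same chromosome, and both are in the sparsest 1 Mb window of chromosome 4. The other 2 of the 5 longest were those of 94327 bp on chromosome 10, from 4104482 to 4198808, and of 87465 bp on chromosome 7, from 1316412 to 1403876. Both had 36 or more summits in their flanks in each library.

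Emptiness in 1 library was much less certain than in both. Replicate 1 alone had 1666 stretches of 20 kb and replicate 2 had 1081. Replicate 2 had a peak wholly inside 1297 of the stretches of replicate 1, 3164 peaks in all with a median fold enrichment of 2.87. Replicate 1 had a peak inside 581 of those of replicate 2, 960 peaks with a median of 3.09. In both cases these peaks were weaker than the median of their own list. The longest stretch was the same in both, with at most 381 bp between their ends. The lists report only what passed the threshold, and signal under it could not be examined.

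The distribution of strength was narrow with a thin upper end. The median fold enrichment was 3.78 in replicate 1 and 3.59 in replicate 2 (3.69 ± 0.134, SD, n = 2), and the middle 50% of peaks lay between 3.06 and 4.97 and between 2.79 and 5.08. A fold enrichment of 10 or more was reached by 1403 peaks in replicate 1 (1.92%) and 1993 in replicate 2 (2.43%). At the lower end, 276 peaks of replicate 1 and 1940 of replicate 2 were under 2. Replicate 2, the deeper library, thus held more weak peaks, and it had the lower maximum, 21.7 compared with 48.4. The part of depth in this was not tested.

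The strongest place in both libraries, ranked by the lower of its 2 fold enrichments, was on chromosome 8. The peak ran from 21121153 to 21121919 in replicate 1 with a fold enrichment of 20.7 from 106 reads, and from 21121177 to 21122071 in replicate 2 with 21.7 from 173 reads. The summits, at 21121451 and 21121500, were 49 bp apart. Second was a peak on chromosome 4 with summits at 7996545 and 7996513 and a fold enrichment of 19.8 in each replicate. Next was a peak on chromosome 11 with summits at 26003226 and 26003161 and values of 20.2 and 19.7. In these 3 places the background was at the lowest value of each library, as it was for 15.8% and 17.7% of all peaks in replicates 1 and 2. These 3 places were followed by a peak on chromosome 2, also at the lowest background, with summits at 20318867 and 20318830 and values of 19.96 and 19.5. A peak on chromosome 7 came after it, with summits at 13366971 and 13366882 and values of 20.2 and 19.4. Ranking by the lower value favors places where the replicates match, and the next 3 places of this order did not, with 48.4, 25.3 and 27.3 in replicate 1 and 19.3, 19.2 and 19.0 in replicate 2.

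The highest values of replicate 1 alone were not matched. Its highest fold enrichment, 48.4 at 2840105 on chromosome 9, was 19.3 in replicate 2. The next, 33.6 from 234 reads, belonged to the peak that covers the first 480 bp of chromosome 5, and replicate 2 had 11.3 there from 124 reads. After these came 29.0 at 2760130 on chromosome 9, a place where replicate 2 was also lower. Both places on chromosome 9 lie in windows among the 12 described above. In the other direction, the 3 highest values of replicate 2, from 20.6 to 21.7, had 18.0 to 20.7 in replicate 1.

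Stronger peaks were longer and were found more often in the other library. The lists were divided into 10 equal groups by −log10 p. From the weakest to the strongest group, the median length rose from 270 to 672 bp in replicate 1 and from 276 to 751 bp in replicate 2. Across peaks of 1 library, which share its depth, the Spearman correlation of length and fold enrichment was 0.556 and 0.590. The share of peaks that overlapped the other list by at least 1 bp rose from 58.2% to 97.9% in replicate 1 and from 39.0% to 99.5% in replicate 2. The other list covered 11.2% and 9.29% of the span, which is the share for a single base. A whole peak meets the other list by 1 bp more often than a single base does, and a longer peak more often than a shorter one. Length was not held equal among the groups, so the rise with strength was not separated from the rise in length. In the strongest 1% of each list, 98.1% of 732 peaks of replicate 1 and all 820 of replicate 2 were shared.

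**Figure D5:**
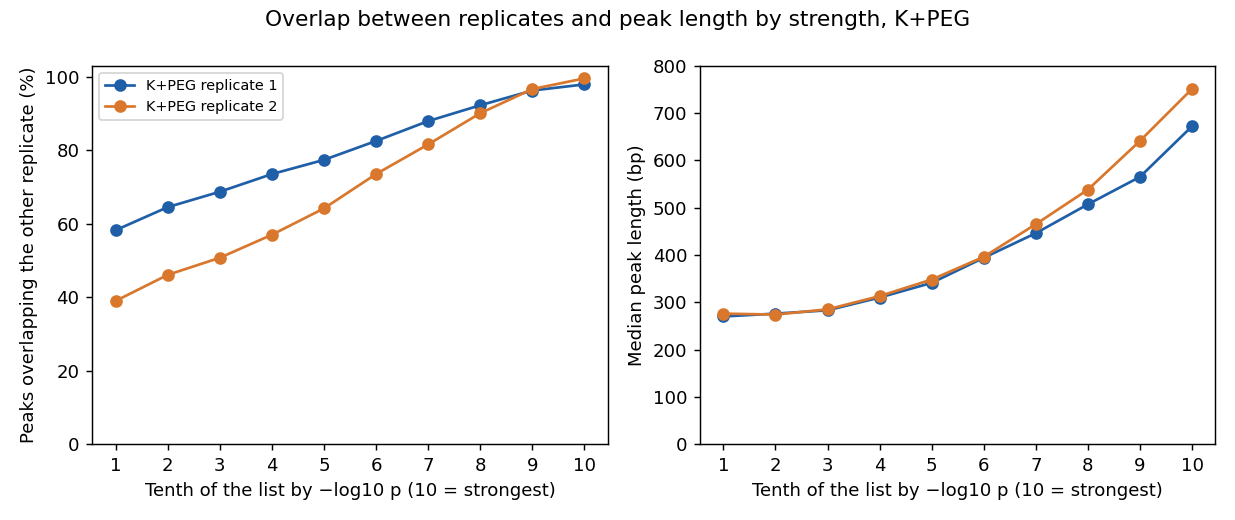
Peaks overlapping the other replicate (left, vertical axis in %) and median peak length (right, vertical axis in bp) in 10 equal groups of each K+PEG list ordered by −log10 p (horizontal axis, 10 is strongest). Both measures rise with strength, and the shares of the replicates, 58.2% and 39.0% in the weakest group, meet near 100% in the strongest.

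Over the whole lists, 79.9% of the peaks of replicate 1 and 69.8% of those of replicate 2 were shared (74.9% ± 7.13, SD, n = 2). The median fold enrichment was 4.01 for shared and 3.10 for unshared peaks in replicate 1, and 4.14 and 2.87 in replicate 2. The median number of reads at the summit was 23 and 18 in replicate 1 and 38 and 25 in replicate 2. The shared percentage differed little among chromosomes, from 77.9% on chromosome 1 to 80.9% on chromosome 6 in replicate 1 and from 67.8% on chromosome 4 to 71.3% on chromosome 3 in replicate 2. The nearest summit of the other list was at a median distance of 1607 bp for the 14710 unshared peaks of replicate 1 and 1894 bp for the 24746 of replicate 2. Of these, 211 (1.43%) and 804 (3.25%) had none within 10 kb.

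Where 2 peaks of the libraries overlapped only each other, their summits lay close together. Overlap was required of each pair, which itself limits the distance. Shared peaks had a median length of 426 bp in replicate 1 and 483 bp in replicate 2. Among the 50828 pairs, the median distance between the summits was 51 bp, 25% lay within 21 bp and 72.1% within 100 bp, and 544 pairs had the same base. Precision went with strength. In the 25% of pairs with the lowest fold enrichment in their weaker replicate the median distance was 69 bp, and in the highest 25% it was 38 bp. The upper tail was alike in both, with 5% of pairs over 374 and 333 bp apart. The peak of replicate 2 was the longer one in 59.9% of the pairs, with a median difference of 31 bp.

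Peak length had a floor of 200 bp, which 3.85% of the peaks of replicate 1 and 2.40% of those of replicate 2 were at. The median was 383 and 401 bp (392 ± 12.7 bp, SD, n = 2). Peaks of 1 kb or more numbered 4079 (5.57%) and 6527 (7.96%) and held 15.3% and 20.9% of all bases in peaks. The deeper library thus had more of its peak bases in long peaks. Summits lay near the middle of the peak, at a median of 49.5% and 49.4% of its length.

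The longest peaks matched only in part between replicates. In replicate 1 the longest, of 7182 bp, spanned bases 17123116 to 17130297 of chromosome 1 and was enriched 11.9 times. It overlapped 5 peaks of replicate 2, the strongest of which had 655 bp and a fold enrichment of 3.10. In replicate 2 the longest, of 5374 bp, spanned bases 7644820 to 7650193 of the same chromosome and was enriched 12.01 times. Replicate 1 had a peak of 5162 bp and a fold enrichment of 7.94 there. The long peak of replicate 2 was therefore also long in replicate 1, and that of replicate 1 was in pieces in replicate 2.

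The background under the peaks was low, and as a multiple of the lowest value it was nearly the same in both lists. At the peak that starts chromosome 5, for example, it was 1.4392 in each. The MACS2 control is not given, and 1 control used for both lists would make these backgrounds 1 measurement. Their likeness is therefore not read as agreement of the replicates. Its median was 1.13 times the lowest value of the library in replicate 1 and 1.12 in replicate 2, 95% of peaks had at most 1.68 times in each, and 15.8% and 17.7% were at the lowest. A background of at least 5 times the lowest was found under 209 and 256 peaks on all 12 chromosomes. Of these 209 and 256 peaks, 190 and 212 were shared, beside 79.9% and 69.8% of all peaks in replicates 1 and 2. The median fold enrichment of the 209 and 256 peaks, shared or not, was 3.83 in replicate 1 and 2.19 in replicate 2.

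The peaks with the 3 highest backgrounds were the same in both lists, which cannot be told apart from the use of a shared control. The highest, on chromosome 6 with summits at 56357 and 56348, had a background of 38.5 and 38.3 times the lowest, and 395 and 399 reads gave a fold enrichment of only 2.46 and 1.48. The second, on chromosome 4 with summits at 9193316 and 9193321, had 34.7 and 34.9 times the lowest and a fold enrichment of 2.07 and 1.59. The third, on chromosome 10 with summits at 20481883 and 20481884, had 33.7 and 33.8 times the lowest and 2.32 and 1.50. At these places many reads were present in pulldown and background alike, and the summits of the replicates were at most 9 bp apart.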

How the data were processed

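BG4-DNA-IP-seq of the 2 K+PEG libraries was analysed here. Trim Galore was used by the authors for trimming, BWA for alignment to the MSU v7.0 assembly and SAMtools for removal of duplicates, and alignments over 50 bp were kept. MACS2 then called peaks library by library, with the p-value threshold set to 0.01. The extension length and the MACS2 control are not given in the sources used here. The deposited lists hold, per peak, the fold enrichment (a ratio), −log10 p, −log10 q and a browser score, of which the score and −log10 q were not used. The deposited positions count from 0, and all positions printed are 1-based.

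Reads and background at each summit were solved from the fold enrichment and −log10 p under the Poisson distribution, to within 0.001 in −log10 p. The peak without a solution has no read value. Windows are full, non-overlapping windows up to the last peak of each chromosome. Python 3.11.15 with numpy 2.4.6, scipy 1.17.1, pandas 2.3.3 and matplotlib 3.10.9 was used, and the functions for reads, overlaps, windows and spacing were checked on simulated data. No statistical test was made.

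The members and lists were chosen with earlier results of these data known. Named places were set by rule as the 5 densest 100 kb windows and 5 strongest peaks by the weaker replicate, the 5 longest empty stretches, the longest peak of each library and its 3 highest backgrounds. The windows stronger in replicate 1 and the highest fold enrichments of single libraries were chosen after their values were seen. Sequence, genes and repeats were not analysed here, because the gene table at hand is of another assembly.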

Additional observations from a re-analysis of the deposited data

How the results depend on the processing

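Of 63 recomputed values, 43 stayed within the spread of the replicates, within 1.5 times for counts and summit distances, or within 0.05 for correlations. The spread was the SD of the 2 libraries, and the value of 1 library alone always lies within it of their mean. For means judged by the SD, leaving out 1 library therefore could not give another outcome, and these cases among the 43 show no stability. After peaks with a −log10 p below 5 were dropped, the densest chromosome exceeded the sparsest by 1.12 times, the median distance was 3806 bp, 1059 empty stretches were found, and the median fold enrichment, length and background were 4.03, 432 bp and 1.12. When both lists were cut to an equal number of peaks, the chromosome ratio was 1.10 and the background 1.12. A reciprocal overlap of at least 50% left 58.0% of peaks shared. With windows of 1 Mb the correlation was 0.835 and 0 windows were hot or sparse in both libraries. Limits of 1.5 and 0.25 times the mean gave 125 hot and 9 sparse windows, and 21 empty stretches reached 50 kb. With 1 library alone, the counts of hot windows were 21 and 29, of sparse windows 63 and 94 and of empty stretches 1081 and 1666, because 1 list has fewer peaks than both together and a window need pass in only 1. Without replicate 1 or 2, the number of peaks was 73199 to 81992, the chromosome ratio 1.098 to 1.099, the median distance 2865 to 3214 bp, the fold enrichment 3.59 to 3.78, the length 383 to 401 bp, the middle to end ratio 1.11 to 1.18 and the background 1.12 to 1.13. Without the 12 windows stronger in replicate 1, an alternative added after the data were seen, 11 windows were hot in both. Values that compare the lists have no value from 1 library. No paired analysis was possible because only 1 group was analysed.

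Replicate 1 is the shallower library, and a place called only in replicate 2 could not be examined under the threshold of replicate 1. Equal numbers of peaks do not make depths equal.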

Other observations

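The following places were chosen after their values were seen and are given as values only. When summits at most 1 kb apart were joined, 77 runs of at least 5 summits were found in each library, with 414 peaks in both cases. The longest run had 10 summits within 6049 bp on chromosome 5, from 29924937 to 29930985, in replicate 1, and 7 of its 10 peaks overlapped a peak of replicate 2. In replicate 2 the longest had 8 summits within 5304 bp on chromosome 2, from 24003343 to 24008646, and 4 of its 8 peaks overlapped a peak of replicate 1.

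Of the 1403 peaks of replicate 1 with a fold enrichment of 10 or more, 3 overlapped no peak of replicate 2. Of the 1993 such peaks of replicate 2, 0 were without a peak of replicate 1. The shared percentages were 99.8% and 100%, beside 79.9% and 69.8% of all peaks in replicates 1 and 2. One of the 3 unshared peaks spans bases 12170004 to 12170332 of chromosome 7 and was enriched 14.7 times, from 75 reads. The other 2 span bases 12507483 to 12507788 and 20053081 to 20053785 of chromosome 5 and were enriched 10.9 and 10.5 times, from 55 and 67 reads. The first and second are inside 2 of the 12 windows in which peaks were stronger in replicate 1.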
